A study of Mus musculus with 15 samples.

Results

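The genes described here are 38 components of the unfolded protein response and of the protein-folding machinery of the endoplasmic reticulum (ER), measured by RNA sequencing in 15 libraries of mouse liver. They were chosen by symbol and were sorted into 4 groups by known role: 15 ER chaperones and folding enzymes, 9 genes of ER-associated degradation and of the translocon, 6 stress sensors and their transcription factors, and 8 genes of the ATF4 type. The 38 symbols matched 39 of the 55849 rows of the table, because Ddit3 was listed in 2 rows, and the longer row (ENSMUSG00000025408) was used. Of the 38 genes, 37 passed a filter of a mean of at least 1 TPM (a share of the library's transcripts, corrected for gene length and scaled to the same total in every library) and were tested. Asns, with a mean of 0.503 TPM, did not.

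The study compared 3 groups of 5 libraries each: young control livers, aged control livers, and livers of mice that received KSL0608-Se together with irradiation, called young, aged and treated here. KSL0608-Se is a compound that the labels name only by this code. The labels give no age, sex, strain, dose or irradiation setting, and they do not state the age of the treated mice. No group received the compound alone or the irradiation alone, so these 2 components of the treatment cannot be told apart. Nothing states that the libraries came from separate animals, so the p-values reflect how much these libraries vary, part of which may be technical variation. Comparisons that use the same group share its 5 libraries.

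The ER of the hepatocyte folds the plasma proteins that the liver secretes. Unfolded protein in the ER activates 3 membrane sensors, IRE1 (gene Ern1), PERK (gene Eif2ak3) and ATF6. IRE1 splices the messenger RNA of Xbp1, ATF6 is cut to release a transcription factor, and both routes raise chaperones and degradation factors. PERK phosphorylates the translation factor eIF2α, which lowers protein synthesis but favours translation of ATF4, an activator of amino acid supply genes and of the stress factor CHOP (gene Ddit3). TPM values hold total transcript per gene: they do not measure the splicing of Xbp1, the cleavage of ATF6 or the translation of ATF4.

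The promoters of the members were read first, because the response works through short DNA elements. RefSeq start-site windows on the build GRCm38.p6, running from 250 bases before to 50 bases after each start, were found for 34 of the 38 members. Each window was searched on both strands for 3 patterns: the ER stress response element (ERSE, CCAAT, any 9 bases, CCACG), bound by ATF6 and XBP1 together with NF-Y; its shorter form (ERSE-II, ATTGG, any base, CCACG); and the C/EBP-ATF response element (CARE, TGATG, any base, AA), bound by ATF4 with a C/EBP partner. ERSE stood in the windows of 9 of 34 members, against 0.119% of 32851 windows in all. These were 7 of 13 chaperones (Hspa5, Hsp90b1, Calr, Canx, Pdia6, Dnajc3 and Creld2) and 2 of 8 degradation and translocon genes (Derl3 and Syvn1). ERSE-II was found in Dnajb11 and Herpud1, against 0.0365% of all windows. CARE was found in 5 of 8 ATF4-type genes (Trib3, Nupr1, Asns, Chac1 and Vldlr), in Herpud1 and in 0 of 13 chaperones, against 3.97% of all windows. Herpud1, whose product anchors the degradation complex, was the member with both an ERSE-II and a CARE match. The classical elements of several of these genes are part of why the patterns are known, so the shares are a description of the members. A match is not shown to be a bound site, and the absence of a match says only that these letters are not in the window.

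The promoters of 4 ERSE genes whose transcripts are described below are shown for the 250 bases before the start site, in the direction of the gene, with the ERSE match in capitals. Hspa5 lies at chr2:34771840-34772089 on the plus strand, Hsp90b1 at chr10:86705445-86705694 on the minus strand, Creld2 at chr15:88819396-88819645 on the plus strand and Derl3 at chr10:75893148-75893397 on the plus strand. The Hsp90b1 promoter holds 2 matches, one on each strand, and Creld2 and Derl3 hold theirs on the opposite strand to the gene.
Hspa5: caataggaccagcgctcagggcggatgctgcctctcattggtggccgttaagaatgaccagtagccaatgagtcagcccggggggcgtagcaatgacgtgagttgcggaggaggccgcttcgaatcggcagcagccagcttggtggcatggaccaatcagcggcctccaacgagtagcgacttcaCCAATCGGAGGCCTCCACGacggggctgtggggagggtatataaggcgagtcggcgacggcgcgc
Hsp90b1: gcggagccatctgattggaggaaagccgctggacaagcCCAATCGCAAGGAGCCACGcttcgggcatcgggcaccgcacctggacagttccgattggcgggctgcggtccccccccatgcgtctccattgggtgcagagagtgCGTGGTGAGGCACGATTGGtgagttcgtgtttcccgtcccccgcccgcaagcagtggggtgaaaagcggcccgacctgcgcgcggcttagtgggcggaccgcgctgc
Creld2: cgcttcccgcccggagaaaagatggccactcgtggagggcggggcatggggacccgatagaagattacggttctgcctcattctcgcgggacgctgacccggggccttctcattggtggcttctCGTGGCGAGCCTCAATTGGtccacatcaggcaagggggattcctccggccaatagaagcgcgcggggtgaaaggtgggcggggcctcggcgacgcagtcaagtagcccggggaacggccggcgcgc
Derl3: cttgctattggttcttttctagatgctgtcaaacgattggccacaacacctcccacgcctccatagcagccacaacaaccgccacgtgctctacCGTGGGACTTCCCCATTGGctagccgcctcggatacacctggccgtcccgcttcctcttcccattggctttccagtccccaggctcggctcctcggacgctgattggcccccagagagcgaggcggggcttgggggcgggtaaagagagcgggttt

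Trib3 and Nupr1, the ATF4-type genes with the lowest p-values of their group, are shown with the CARE match in capitals, on the opposite strand to the gene in both. For Trib3 the match lies just after the start site, so 30 bases around it are given, at chr2:152344028-152344057 on the minus strand. For Nupr1 the 250 bases before the start are given, at chr7:126625471-126625720 on the minus strand.
Trib3: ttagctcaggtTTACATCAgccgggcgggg
Nupr1: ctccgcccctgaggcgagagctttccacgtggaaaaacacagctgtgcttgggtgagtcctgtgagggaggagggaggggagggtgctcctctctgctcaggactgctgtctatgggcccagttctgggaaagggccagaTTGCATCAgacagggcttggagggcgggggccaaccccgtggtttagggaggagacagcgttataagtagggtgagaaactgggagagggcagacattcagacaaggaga

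**Figure D1:**
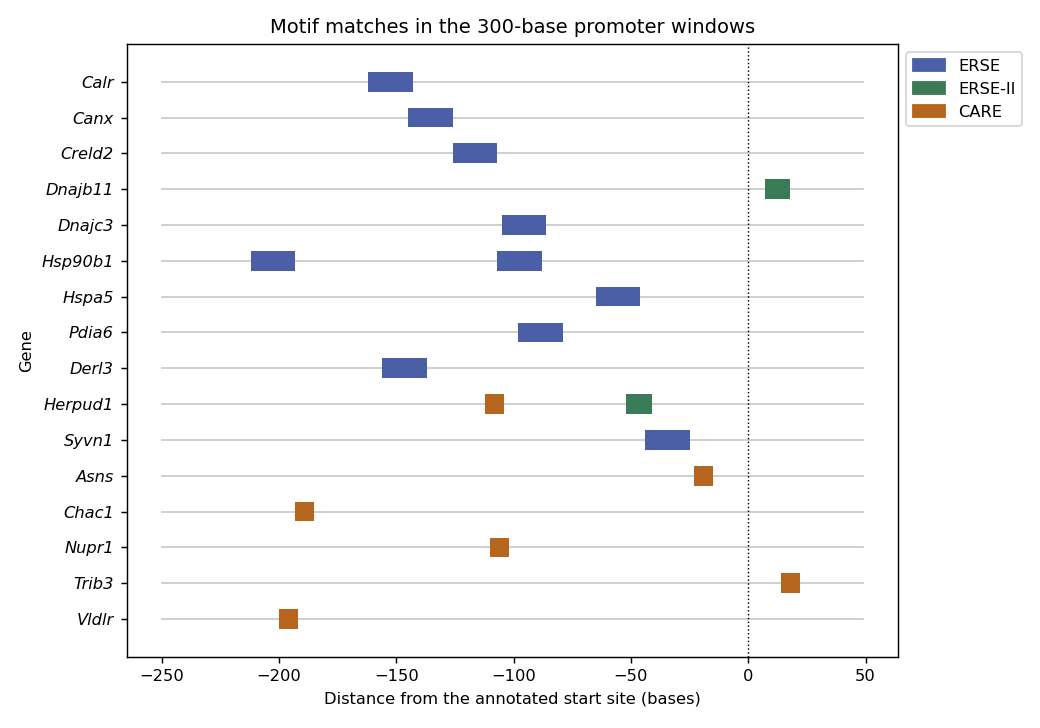
Positions of ERSE, ERSE-II and CARE matches in the start-site windows of the members that hold one, in bases from the start site at 0, 1 row per gene and 1 colour per pattern. ERSE matches lie between 212 and 26 bases before the start, and the Trib3 match lies 14 to 21 bases after it.

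Libraries stood apart in ways that touch the members. Hepatocyte markers (11 genes) were above 0 in every library, with means of 11.04 to 11.71 on the log2(TPM + 1) scale. Group means of these markers were 11.59, 11.23 and 11.15 in young, aged and treated liver, and those of 12 macrophage markers were 5.08, 5.71 and 6.14. The part of these shifts in the differences between groups was not tested. Young 4 had lower values of long genes: its median log2 difference from the other young libraries was -0.0873 in genes of up to 1784 bases and -0.620 in genes over 3322 bases, a gap of -0.533 that lay between -0.213 and 0.236 in the other libraries. Treated 5 had the highest means of the macrophage markers (7.38) and of 8 neutrophil markers (2.38). Aged 5 had the highest means of 14 B and plasma cell markers (5.25), of T and NK cell markers (3.23) and of cell cycle genes (3.19). In whole tissue, fewer cells of a type and less RNA per cell cannot be told apart.

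None of the 37 tested members passed an adjusted p of 0.05 in any of the 3 comparisons (limma on log2(TPM + 1), Benjamini-Hochberg over 12168 genes). From young to aged liver, 0 of 37 were called against 1.08% of all genes tested, and at an unadjusted p under 0.05 there was 1 member, Trib3, with the lower mean in aged liver, against 8.72% of all genes. Between treated and aged liver, 0 of 37 were called against 0.00822% of all genes, and 1 member, Hsp90b1, had an unadjusted p under 0.05, with the higher mean in treated liver, against 4.41% of all genes. Between treated and young liver, 0 of 37 were called against 2.91% of all genes. At an unadjusted p under 0.05 there were 3 members with the higher mean in treated liver (Hsp90b1, Derl2 and Nupr1) and 3 with the lower mean (Trib3, Creb3l3 and Vldlr). That is 6 of 37 members, against 17.8% of all genes tested at the same threshold (12.7% higher and 5.14% lower in treated liver). The smallest adjusted p of any member was 0.2302 for aged against young, 0.925 for treated against aged and 0.06933 for treated against young.

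The direction of the means differed by comparison and by role. In aged against young liver, 16 members had the higher mean and 21 the lower, with a median log2 difference of -0.02, while over all genes tested the median was 0.05 and 59.2% had the higher mean. In treated against aged liver, 29 members had the higher mean and 8 the lower, with a median of 0.15, against a median of -0.00 and a share of 49.7% over all genes. In treated against young liver the counts were 25 and 12, with a median of 0.12, against a median of 0.06 and a share of 57.4% over all genes. The comparisons share their control libraries, so these counts are not independent of each other. The chaperones carried the higher means: 14 of 15 were higher in treated than in aged liver, with a median of 0.29, and 14 of 15 were higher in treated than in young liver, with a median of 0.23. Of the 7 tested ATF4-type genes, 5 were higher in treated than in aged liver (median 0.15) and 3 were higher in treated than in young liver (median -0.06). Sensors and factors were split evenly in both treated comparisons, with 3 of 6 higher, and no test between role groups was made.

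**Figure D2:**
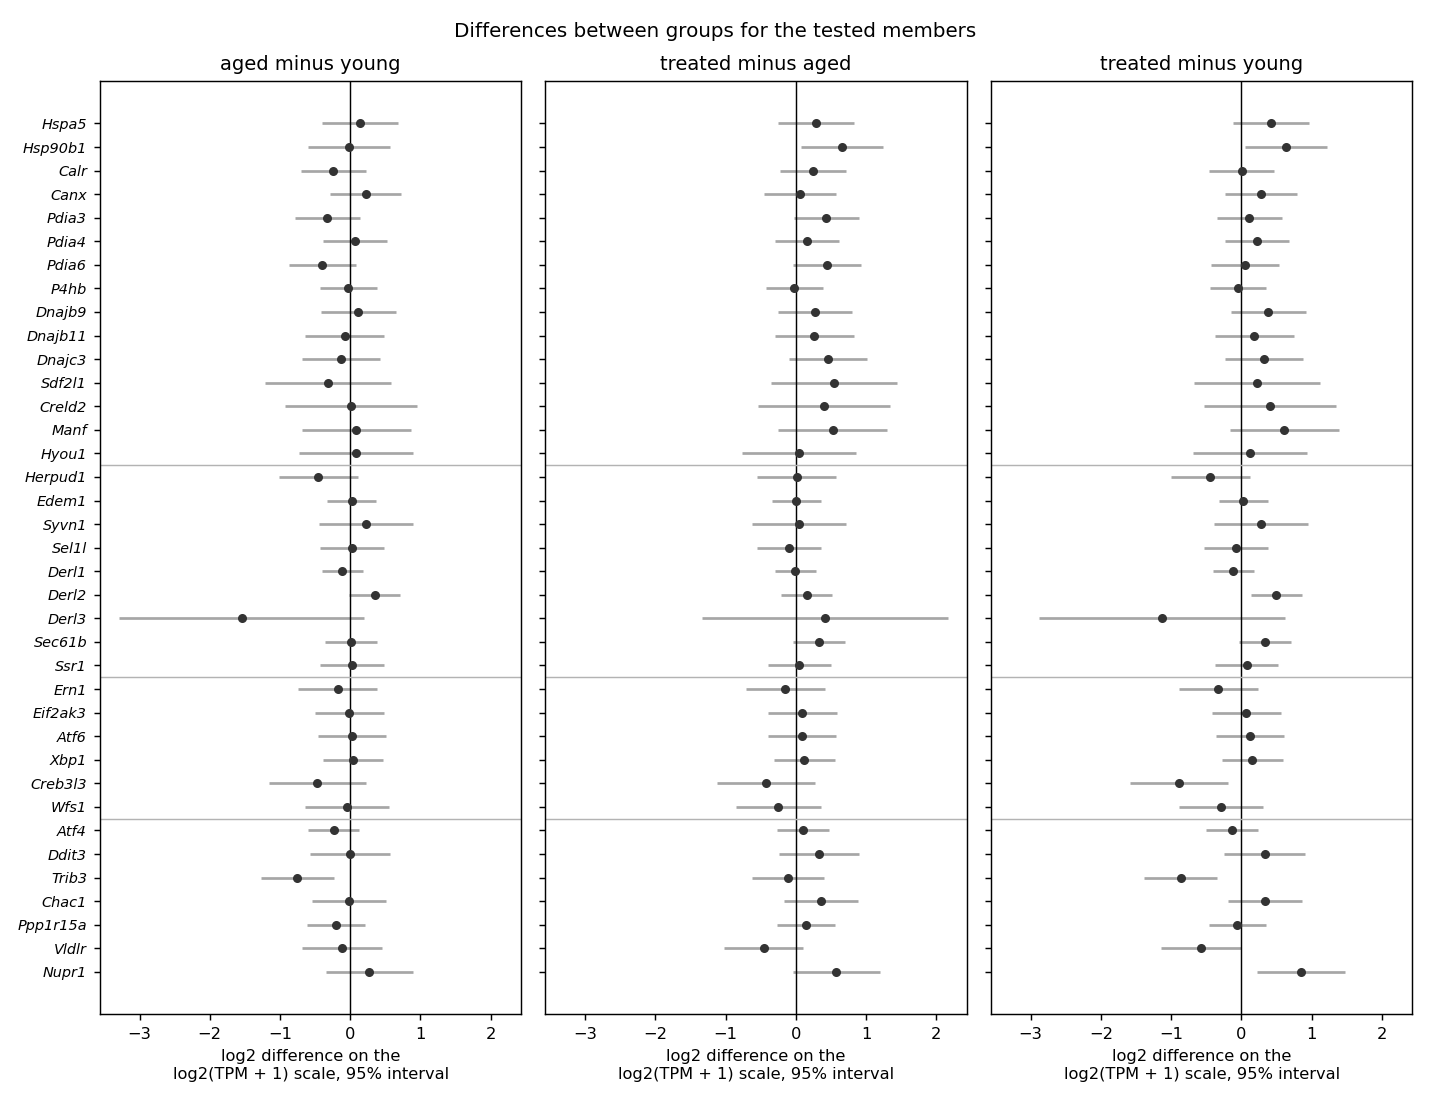
Log2 difference of each of the 37 tested members, with its 95% interval from limma, for aged minus young, treated minus aged and treated minus young, ordered by role group. Chaperones lie mostly to the right of 0 in both treated comparisons, and no member passed the adjusted threshold.

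The chaperones were the most abundant members. Protein disulfide isomerase P4hb and calreticulin (Calr), the calcium-binding lectin chaperone, led with means over all libraries of 805 and 675 TPM. Together the 15 chaperones took 0.234% to 0.345% of all TPM in young libraries, 0.200% to 0.392% in aged libraries and 0.260% to 0.502% in treated libraries. The mean over the 15 chaperones on the log2(TPM + 1) scale was 6.92, 6.50, 6.89, 6.47 and 6.55 in young libraries 1 to 5. In aged libraries it was 6.42, 6.09, 6.44, 6.79 and 7.31, and in treated libraries it was 6.72, 6.74, 6.79, 6.67 and 7.74. Treated 5 was the highest of the 15 libraries and aged 5 the next, while aged 2 was the lowest, and the 3 groups overlapped.

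**Figure D3:**
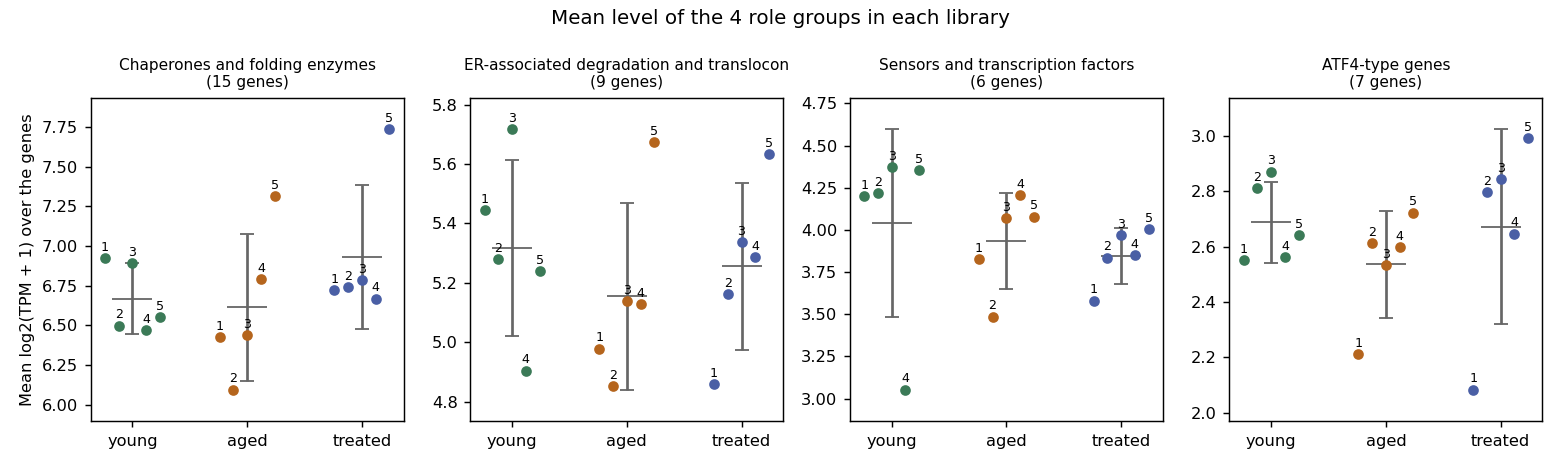
Mean log2(TPM + 1) over the members of each role group in each library, by group, with the group mean and SD. Treated 5 (7.74) and aged 5 (7.31) lie above all other libraries for the chaperones, and young 4 (3.05) lies below all others for the sensors.

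Treated 5 held the highest value of all 15 libraries for 14 of 15 chaperones, where it was highest for 9.63% of all genes tested. P4hb, highest in young 3, was the exception. For the 15 chaperones, treated 5 lay a median of 0.88 log2 units above the mean of the other treated libraries, with a range of 0.43 to 1.95, against a median of 0.01 over all genes. Aged 5 was the highest aged library for 12 of 15 chaperones, against 28.6% of all genes, and lay a median of 0.78 above the other aged libraries. Aged 2 was the lowest aged library for 12 of 15, against 35.1% of all genes, and lay a median of 0.50 below the others. In TPM, treated 5 exceeded the mean of the other treated libraries 3.91-fold for Creld2 and 3.62-fold for Sdf2l1. The ratio was 2.43 for Manf, 2.39 for Hyou1, 2.12 for Hsp90b1 and 2.00 for Hspa5, but 1.43 for P4hb and 1.35 for the lectin chaperone Canx. In aged 5 the ratios were 3.73 for Creld2, 3.62 for Sdf2l1 and 2.68 for Manf. Macrophage and neutrophil markers were highest in treated 5, and lymphocyte and cell cycle markers in aged 5, and their part in these values was not tested. Without treated 5, the median chaperone difference was 0.09 for treated against aged liver (11 of 15 higher) and 0.02 for treated against young liver (8 of 15 higher). With young 4 and aged 5 left out as well, the difference to young liver was -0.05. Without aged 5 alone it was 0.49 for treated against aged liver, and with aged 5 and treated 5 left out it was 0.29, with 14 of 15 higher. The median for treated against young liver thus fell from 0.23 to 0.02 without treated 5. For treated against aged liver the median fell without treated 5 and rose without aged 5. With both left out it was 0.29, as with all libraries. The joint omissions were chosen after the data were seen, and they kept aged 2, the low aged library.

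**Figure D4:**
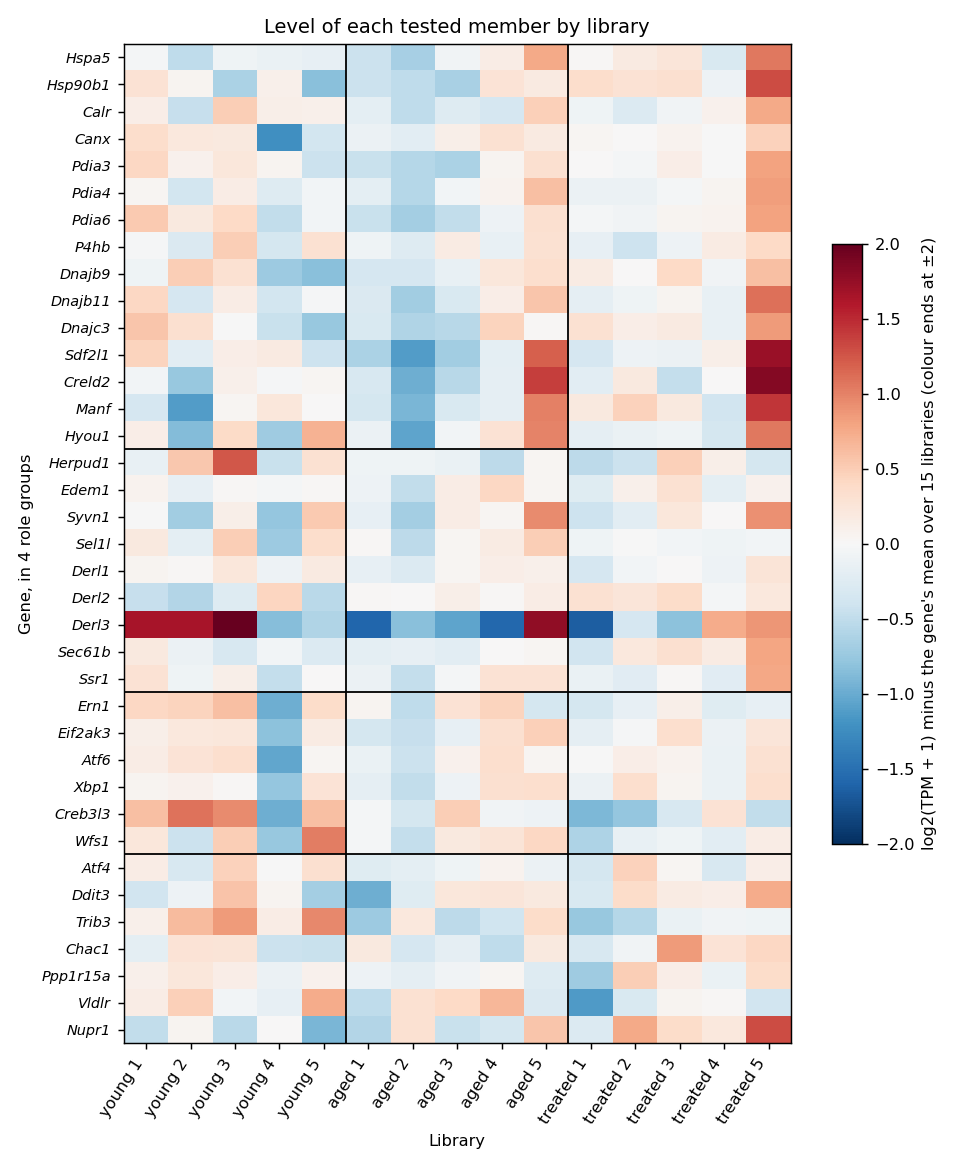
Log2 difference of each member from its mean over the 15 libraries, members in rows by role group and libraries in columns by group, with colours ending at 2 log2 units. The column of treated 5 is raised across the chaperone rows, least in P4hb and Canx, and the column of young 4 is low across the sensor rows.

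Hspa5 encodes BiP, the ER Hsp70 chaperone that also holds the sensors inactive. Its level was 208, 151, 203, 196 and 192 TPM in young libraries 1 to 5, 159.9, 135, 204, 237 and 364 TPM in aged libraries and 218, 243, 255, 173 and 445 TPM in treated libraries. The group means were 189.8 ± 22.8, 220.0 ± 89.6 and 267 ± 104 TPM (SD, n = 5 each). The groups overlapped, and aged 5 and treated 5 lay well above the other libraries of their groups. The log2 difference was 0.13 for aged against young liver (SE 0.26, adjusted p = 1), 0.29 for treated against aged liver (95% interval -0.25 to 0.83, adjusted p = 0.925) and 0.42 for treated against young liver (-0.12 to 0.96, adjusted p = 0.4135).

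Hsp90b1 encodes GRP94, the ER member of the Hsp90 family, which folds a narrow set of secreted and membrane proteins. Its level was 259, 219, 136, 228 and 118 TPM in young libraries, 156, 149, 134, 257 and 239 TPM in aged libraries and 270.2, 258, 266, 197 and 525 TPM in treated libraries. In 4 of 5 treated libraries it was at or above 257.73 TPM. Young 1 lay above that level, aged 4 lay just below it at 257.22 TPM, and treated 4 lay within both control groups. The group means were 192 ± 61.6, 187 ± 56.5 and 303 ± 127 TPM (SD, n = 5 each). In log2 units the difference was 0.66 for treated against aged liver (SE 0.28, adjusted p = 0.925) and 0.64 for treated against young liver (SE 0.28, adjusted p = 0.2328), and neither passed. For aged against young liver it was -0.02 (SE 0.28).

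Pdia3 and Pdia6 are disulfide isomerases, of which Pdia3 (ERp57) works with the lectin chaperones on glycoproteins. Pdia3 was at 241, 192, 210.2, 188 and 134 TPM in young libraries, 132, 121, 117, 187 and 225 TPM in aged libraries and 182, 176, 198, 180.0 and 317 TPM in treated libraries. Pdia6 was at 220.1, 175, 202, 109 and 146 TPM in young libraries, 112, 94.9, 108, 142 and 191 TPM in aged libraries and 148, 146, 159, 160.5 and 267 TPM in treated libraries. Aged 1 to 3 lay below all treated libraries in both genes, aged 4 in Pdia6 as well, and aged 5 lay within the treated range. The log2 difference between treated and aged liver was 0.44 for Pdia3 (-0.02 to 0.90) and 0.44 for Pdia6 (-0.04 to 0.93), with an adjusted p of 0.925 for each. For aged against young liver it was -0.32 and -0.40, with adjusted p-values of 0.8283 and 0.7258. Treated and young liver differed by 0.11 and 0.05 in the 2 genes.

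Creld2, Sdf2l1, Manf and Hyou1 were picked out after their values were seen, because their range over the libraries was wide. Sdf2l1, a partner of BiP and its J proteins, was at 59.8, 37.7, 48.3, 49.6 and 32.7 TPM in young libraries, 28.0, 19.7, 26.5, 38.2 and 102 TPM in aged libraries and 34.3, 40.8, 40.0, 47.3 and 147 TPM in treated libraries. Outside aged 5 and treated 5 its highest value was that of young 1. Creld2, a secreted ER stress protein with isomerase activity, was at 31.2, 18.6, 34.7, 31.8 and 33.0 TPM in young libraries, 25.6, 16.0, 21.7, 28.3 and 85.5 TPM in aged libraries and 27.8, 36.9, 23.0, 32.5 and 118 TPM in treated libraries. Manf, an ER-resident trophic factor that binds BiP, was at 114, 65.8, 148, 168 and 144 TPM in young libraries, 113, 75.8, 117, 127 and 289 TPM in aged libraries and 165, 199, 164, 109.7 and 386 TPM in treated libraries. Each of the 3 genes had the same pair of extremes, aged 5 and treated 5, above otherwise overlapping groups. Between the highest and the lowest library the ratio was 7.47 for Sdf2l1, 7.34 for Creld2, 5.87 for Manf and 4.48 for Hyou1, the exchange factor of BiP. The same ratio was 3.30 for Hspa5, 2.40 for Calr and 1.87 for P4hb. The log2 difference between treated and young liver was 0.41 for Creld2 (-0.53 to 1.35), 0.23 for Sdf2l1 (-0.67 to 1.13) and 0.61 for Manf (-0.16 to 1.39), none called.

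The remaining chaperones had overlapping groups. Calr averaged 706 ± 159, 603 ± 178 and 716 ± 223 TPM in young, aged and treated liver, and P4hb 825 ± 212, 797 ± 132 and 793 ± 175 TPM (SD, n = 5). Canx averaged 112 ± 41.6, 123 ± 18.0 and 128 ± 18.8 TPM, with the lowest value of 49.6 TPM in young 4. The disulfide isomerase Pdia4 averaged 122 ± 18.1, 132 ± 40.8 and 146 ± 47.8 TPM. P4hb was the chaperone with the lower mean in treated than in aged liver, by 0.02 on the log2 scale. The J proteins are co-chaperones that drive the BiP cycle. Dnajb11 averaged 51.5 ± 12.3, 49.9 ± 17.5 and 61.4 ± 28.6 TPM, Dnajc3 29.4 ± 10.9, 26.3 ± 8.77 and 36.1 ± 10.4 TPM, and Dnajb9 16.7 ± 7.03, 17.3 ± 4.08 and 21.0 ± 4.40 TPM. All 3 J proteins had their highest mean in treated liver, by less than the spread between libraries.

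Degradation and translocon genes showed no common direction. Of 9, 7 had the higher mean in treated than in aged liver with a median of 0.05, and 5 had the higher mean in treated than in young liver with a median of 0.03. The median for treated against young liver was -0.01 under quantile normalization and -0.04 under median-ratio scaling. Treated 5 lay a median of 0.38 above the other treated libraries in these genes.

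Derl2 encodes a derlin, a membrane component through which misfolded proteins leave the ER. It was at 36.8, 33.5, 42.5, 69.4 and 34.9 TPM in young libraries, 51.9, 51.2, 55.6, 52.0 and 56.4 TPM in aged libraries and 63.3, 60.3, 66.4, 49.7 and 59.1 TPM in treated libraries. Young 4 had the highest value of all 15 libraries, and the other 4 young libraries lay below every aged and treated library. With young 4 included, the log2 difference was 0.35 for aged against young liver (SE 0.17, adjusted p = 0.6058) and 0.50 for treated against young liver (SE 0.17, adjusted p = 0.132). Without young 4, Derl2 passed in both comparisons, with adjusted p-values of 0.02903 and 0.003545. At that setting 1185 of 12168 genes passed for treated against young liver, against 354 with all libraries. For aged against young liver 132 genes passed with all libraries, and 79 to 163 with any 1 library left out. Over 27 alternative settings, some chosen after the data were seen, Derl2 passed in 2 for aged against young liver (adjusted p from 0.02903 to 0.9678). It passed in 4 for treated against young liver (0.002967 to 0.3055). Each pass came with library weights or with young 4 left out, alone or with other libraries. Treated against aged liver gave 0.15 (-0.21 to 0.52).

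Derl3, the derlin best known from secretory cells such as plasma cells, ranged over 45.8-fold between libraries. It was at 15.5, 15.4, 31.1, 1.89 and 2.45 TPM in young libraries, 0.750, 1.92, 1.53, 0.760 and 17.0 TPM in aged libraries and 0.680, 3.13, 1.97, 7.72 and 8.63 TPM in treated libraries. Young 1 to 3 and aged 5 lay above 15 TPM, the other 4 aged libraries at or below 1.92 TPM, and all groups overlapped. Mean levels were 13.3 ± 12, 4.39 ± 7.06 and 4.43 ± 3.54 TPM. limma gave a log2 difference of -1.55 for aged against young liver (-3.29 to 0.20, adjusted p = 0.6632) and -1.13 for treated against young liver (-2.88 to 0.62, adjusted p = 0.5024). The mean of 14 B and plasma cell markers was 0.80 to 0.90 in the young libraries and 1.80 to 5.25 in the aged and treated libraries. Aged 5 had the highest Derl3 value of the aged libraries and the highest mean of those markers. Among treated libraries, treated 4 had the highest marker mean (4.25), while treated 5, with a marker mean of 2.21, had the highest Derl3 value. Young 1 to 3, above 15 TPM in Derl3, had marker means within the low young range. The part of these markers in the Derl3 values was not tested.

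Sec61b, a subunit of the channel through which new proteins enter the ER, was at 241, 194, 169, 204 and 175 TPM in young libraries, 183, 188, 182, 212 and 217 TPM in aged libraries and 162, 245, 262, 237 and 366 TPM in treated libraries. In 3 of 5 treated libraries it exceeded every control library, and treated 1 was the lowest of all. The group means were 197 ± 28.8, 196 ± 16.7 and 254 ± 73.1 TPM, and the log2 difference was 0.33 for treated against aged liver (SE 0.18, adjusted p = 0.925) and 0.33 for treated against young liver (SE 0.18, adjusted p = 0.3352). Herpud1 averaged 206 ± 98.6, 139 ± 19.3 and 144 ± 45.3 TPM, with log2 differences of -0.46 for aged against young and -0.44 for treated against young liver that did not pass. The mannosidase-like lectin Edem1 averaged 36.1 ± 2.30, 37.4 ± 8.60 and 37.2 ± 6.10 TPM, and the derlin Derl1 45.9 ± 4.30, 42.5 ± 5.12 and 42.5 ± 6.50 TPM. The ubiquitin ligase Syvn1 (HRD1) averaged 21.5 ± 8.48, 25.7 ± 11.7 and 26.1 ± 10.7 TPM, with 45.1 TPM in aged 5 and 44.0 TPM in treated 5. Its partner Sel1l averaged 27.3 ± 8.66, 27.2 ± 6.77 and 24.6 ± 0.539 TPM. The translocon-associated subunit Ssr1 averaged 15.7 ± 3.15, 16.0 ± 3.58 and 17.0 ± 6.19 TPM. The group means of these 5 genes differed by less than the largest SD within a group.

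The sensors and their factors were expressed at low levels except for Xbp1 and Creb3l3. Ern1 averaged 8.5 ± 3.14, 7.09 ± 2.20 and 6.13 ± 0.901 TPM in young, aged and treated liver. Its treated against young difference was -0.33 (-0.89 to 0.24, adjusted p = 0.5511) and did not pass. Without young 4 that difference was -0.62 and passed, with an adjusted p of 0.04717. At that setting 1185 of 12168 genes passed, against 354 with all libraries. Eif2ak3 averaged 3.44 ± 1.11, 3.39 ± 1.29 and 3.56 ± 0.730 TPM and Atf6 7.53 ± 2.59, 7.39 ± 1.60 and 7.86 ± 0.988 TPM. Wfs1, an ER membrane protein linked to Wolfram syndrome, averaged 4.37 ± 2.59, 3.84 ± 1.08 and 3.04 ± 0.732 TPM. Young 4 was the lowest of all 15 libraries for 6 of 6 genes in this group, where it was lowest for 41.5% of all genes tested, and lay a median of 1.15 log2 units below the other young libraries, against 0.418 over all genes. Values of genes over 3322 bases were low in young 4 as well, with a median log2 difference of -0.620. Ern1, Eif2ak3, Atf6 and Wfs1 are of that length, while Xbp1 (1116 bases) and Creb3l3 (2294 bases) are shorter. The part of gene length in the result was not tested. Across the 3 comparisons the group medians were -0.03, -0.03 and -0.11 for aged to young, treated to aged and treated to young liver in turn.

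Xbp1, the transcript that IRE1 splices, was at 93.8, 96.5, 91.9, 52.8 and 109.9 TPM in young libraries, 79.9, 64.0, 83.9, 113 and 114 TPM in aged libraries and 83.7, 114, 94.0, 82.1 and 114 TPM in treated libraries. The groups overlapped throughout, and young 4 was the lowest library. The log2 difference was 0.04 for aged against young (adjusted p = 1), 0.12 for treated against aged (adjusted p = 0.956) and 0.16 for treated against young liver (-0.27 to 0.59, adjusted p = 0.7316).

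Creb3l3 encodes CREBH, a liver-enriched ER membrane factor related to ATF6 that is known for genes of lipid metabolism and the acute phase. It was at 166, 233, 209, 54.8 and 165 TPM in young libraries, 106, 84.9, 153, 103 and 101 TPM in aged libraries and 58.0, 63.2, 87.0, 133 and 77.2 TPM in treated libraries. Apart from young 4, the lowest of all, every young library lay above every aged and treated library. The group means were 165 ± 68.3, 109.5 ± 25.5 and 83.7 ± 29.9 TPM. The fitted difference was -0.47 for aged against young liver (SE 0.33, adjusted p = 0.8598), -0.42 for treated against aged liver (SE 0.33, adjusted p = 0.925) and -0.89 for treated against young liver (-1.58 to -0.19, adjusted p = 0.1625). Without young 4 the treated against young difference passed, with an adjusted p of 0.005652. At that setting 1185 of 12168 genes passed, against 354 with all libraries. Over 27 alternative settings the Creb3l3 difference passed in 4, with a range of 0.005571 to 0.3399. Each pass came with library weights or with young 4 left out, alone or with other libraries. Hepatocyte marker means also differed between the groups, as given above, and their part in the Creb3l3 values was not tested.

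**Figure D5:**
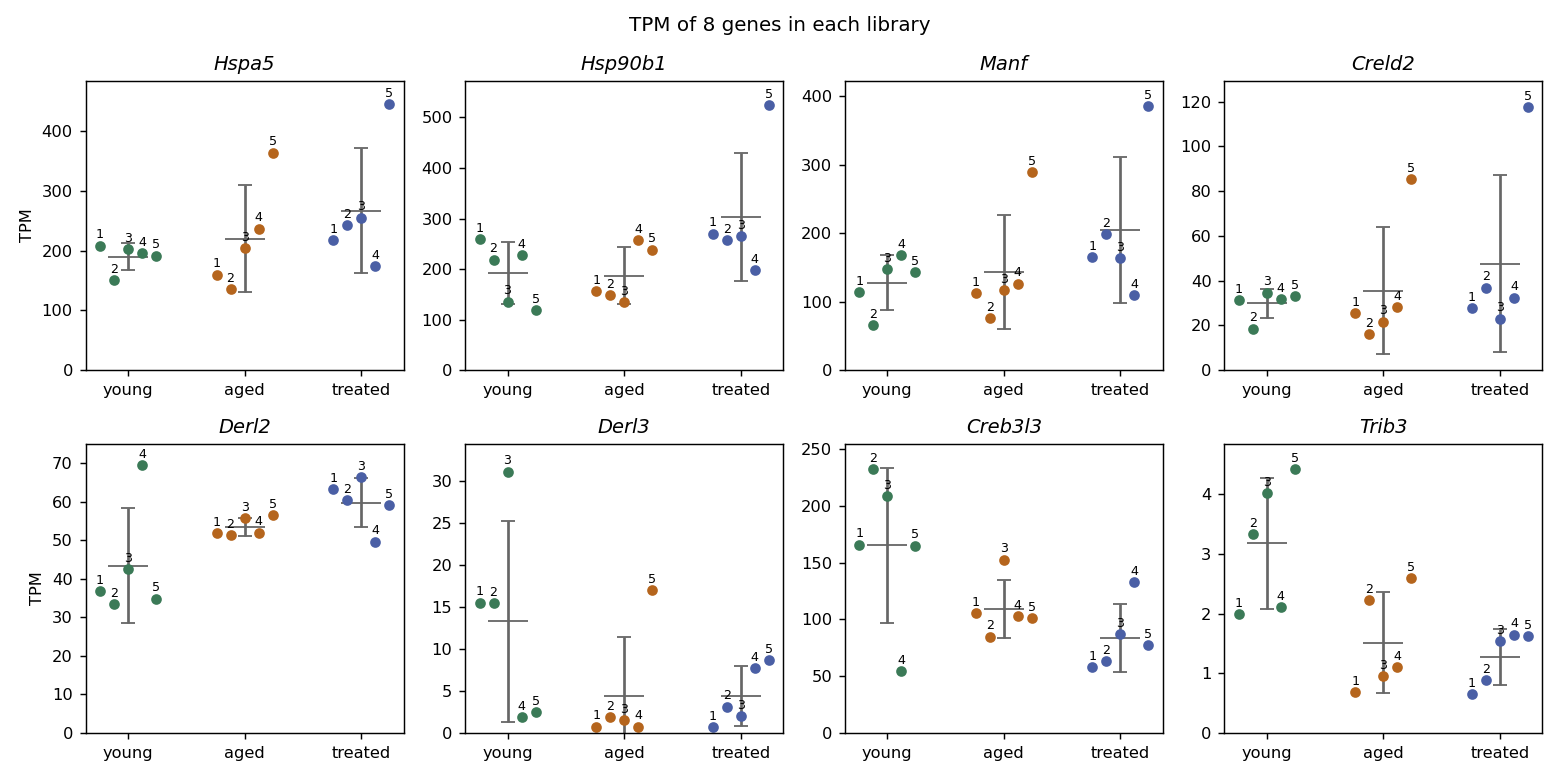
TPM of 8 members in each library, by group, with the group mean and SD (the aged bar of Derl3 is cut at 0). In Derl2 and Creb3l3 the young 4 point lies on the far side of the other young libraries, and in Trib3 all treated points lie below all young points.

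The ATF4-type genes were low in liver apart from Atf4 itself. Of 7 tested members, 6 had the lower mean in aged than in young liver (median -0.12), 5 had the higher mean in treated than in aged liver (median 0.15), and none was called. Treated 1 was the lowest treated library for 7 of 7, against 53.6% of all genes tested. Atf4 was at 65.4, 46.9, 80.9, 58.6 and 73.3 TPM in young libraries, 49.4, 51.1, 55, 61.6 and 53.9 TPM in aged libraries and 45.9, 80.6, 60.0, 46.5 and 64.5 TPM in treated libraries. The aged libraries were closely grouped within the range of the young and treated ones. limma gave a log2 difference of -0.24 for aged against young (SE 0.17, adjusted p = 0.8836), 0.10 for treated against aged and -0.13 for treated against young liver (-0.50 to 0.23, adjusted p = 0.7352).

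Ddit3, the CHOP gene, was at 6.10, 7.65, 12.8, 8.62 and 4.82 TPM in young libraries, 3.73, 6.83, 9.81, 10.0 and 9.59 TPM in aged libraries and 6.53, 11, 9.38, 9.17 and 14.6 TPM in treated libraries. The groups overlapped, and treated 5 was the highest library. The group means were 7.99 ± 3.04, 8.0 ± 2.72 and 10.1 ± 2.96 TPM, and the log2 difference was -0.00 for aged against young (-0.58 to 0.57) and 0.33 for each treated comparison (-0.24 to 0.91 against aged liver, adjusted p = 0.925). The second Ddit3 row (ENSMUSG00000116429, length 105 bases) was listed at 0 in 11 libraries and at 23.6 TPM in young 4, 20.9 TPM in aged 3, 62.2 TPM in treated 2 and 34.2 TPM in treated 3. In such a short feature a TPM value rests on few reads, and how reads were split between the 2 rows is not given in the sources used here, so the level of Ddit3 is uncertain.

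Trib3 encodes a pseudokinase that is induced by ATF4 and CHOP and dampens their output. It was at 1.99, 3.34, 4.02, 2.11 and 4.43 TPM in young libraries, 0.69, 2.23, 0.95, 1.11 and 2.60 TPM in aged libraries and 0.65, 0.89, 1.54, 1.65 and 1.63 TPM in treated libraries. Every treated library lay below every young library, the single case among the 37 members in which 2 groups did not overlap, where 4.09% of all genes tested had separate groups in that comparison and 0.953% had the treated group below. For aged against young liver 0 members had separate groups, against 3.38% of all genes, and for treated against aged liver 0, against 0.690%. The group means were 3.18 ± 1.10, 1.52 ± 0.844 and 1.27 ± 0.468 TPM. On the log2 scale the difference was -0.75 for aged against young liver (-1.27 to -0.24, adjusted p = 0.2302), -0.11 for treated against aged liver (-0.63 to 0.41, adjusted p = 0.9693) and -0.86 for treated against young liver (-1.38 to -0.35, adjusted p = 0.06933). The treated against young difference passed under quantile normalization (adjusted p = 0.0173), under median-ratio scaling (0.03507), and without young 4 (0.033) or aged 5 (0.04485). Over all genes, 1185 passed without young 4, against 354 with all libraries. Over 26 alternative settings, some chosen after the data were seen, the Trib3 difference passed in 8, with adjusted p-values of 0.0173 to 0.1751. With values of a few TPM the log2(TPM + 1) scale understates the fold.

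Nupr1, a small stress-induced chromatin protein, was at 1.78, 3.07, 1.69, 2.95 and 1.08 TPM in young libraries, 1.62, 3.84, 1.88, 2.08 and 4.72 TPM in aged libraries and 2.23, 5.64, 4.06, 3.54 and 8.69 TPM in treated libraries. Treated 2 to 5 lay above every young library, and treated 1 lay within the young range. The log2 difference was 0.27 for aged against young (SE 0.29, adjusted p = 0.997), 0.58 for treated against aged (SE 0.29, adjusted p = 0.925) and 0.85 for treated against young liver (SE 0.29, adjusted p = 0.1348). It passed in 2 of 26 alternative settings, with a range of 0.01917 to 0.3152. These were library weights and the joint omission of young 4, aged 5 and treated 1, chosen after the data were seen. Treated 5 had the highest Nupr1 value and also the highest macrophage and neutrophil marker means, whose part in the result was not tested. Vldlr, the very-low-density lipoprotein receptor and a target of ATF4, was at 3.20, 4.26, 2.64, 2.37 and 5.30 TPM in young libraries, 1.65, 3.67, 3.98, 4.96 and 2.10 TPM in aged libraries and 0.73, 2.07, 2.94, 2.82 and 1.91 TPM in treated libraries. Its groups overlapped, and treated 1 was the lowest library. Its log2 difference was -0.12 in aged relative to young liver, -0.46 in treated relative to aged liver and -0.58 in treated relative to young liver, the last with an interval of -1.14 to -0.01 and an adjusted p of 0.2682. Among the tested ATF4-type genes with a CARE match, Nupr1 and Chac1 (0.34) had the higher mean in treated than in young liver. Vldlr and Trib3 (-0.86) had the lower mean, and none of these differences passed with all libraries.

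The other ATF4-type genes were not called. Ppp1r15a (GADD34), the phosphatase subunit that reverses eIF2α phosphorylation, averaged 7.0 ± 0.672, 5.94 ± 0.536 and 6.99 ± 2.38 TPM, with 3.58 TPM in treated 1 and 9.55 TPM in treated 2. Its young and aged means lay further apart than the SD of either group, but the libraries overlapped. limma gave a log2 difference of -0.20 for aged against young liver (-0.61 to 0.20, adjusted p = 0.9677). Chac1, a glutathione-degrading enzyme, averaged 0.952 ± 0.483, 0.916 ± 0.412 and 1.51 ± 0.795 TPM. Asns, asparagine synthetase, averaged 0.460 ± 0.242, 0.728 ± 0.888 and 0.320 ± 0.354 TPM. Its highest values were 2.25 TPM in aged 5 and 0.95 TPM in treated 4, and all other libraries lay at or below 0.75 TPM.

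Further genes of the same processes were examined in 6 lists, and none was called in any comparison. Over all genes tested, 1.08% were called for aged against young, 0.00822% for treated against aged and 2.91% for treated against young liver. Of 29 tested genes among other ER folding factors, the median log2 difference was 0.21 for treated against aged liver and 0.20 for treated against young liver. The lowest p-values of that list were those of 2 FK506-binding prolyl isomerases. Fkbp11 averaged 10.4 ± 2.72, 6.73 ± 2.24 and 14.4 ± 9.44 TPM in young, aged and treated liver (treated against aged 0.86, SE 0.32, adjusted p = 0.925). Fkbp7 averaged 4.16, 3.73 and 5.62 TPM, with a treated against aged difference of 0.50. Both had their lowest mean in aged and their highest in treated liver. Fkbp11 was at 30.08 TPM in treated 5, at 7.15 to 16.24 TPM in the other treated libraries and at 7.89 to 14.06 TPM in young libraries. Treated 5 was the highest of all libraries for 12 of the 29 genes of that list, against 9.63% of all genes tested. Among 22 genes of translocation and N-glycosylation, 7 had an unadjusted p under 0.05 with the higher mean in treated than in young liver and 5 in treated than in aged liver, and 0 with the lower mean in either. Over all genes, 12.7% passed the same threshold with the higher mean in treated than in young liver, and 4.41% passed it in either direction between treated and aged liver. Ostc, a subunit of the oligosaccharyltransferase, averaged 45.7 ± 7.41, 56.5 ± 15.1 and 77.8 ± 26.3 TPM (treated against young 0.71, SE 0.21, adjusted p = 0.08172). Tram1, a translocon partner, averaged 37.1 ± 6.71, 41.7 ± 6.71 and 55.5 ± 10.0 TPM (0.57, adjusted p = 0.08355). Treated 5 was the highest of all libraries for 15 of these 22 genes.

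In 17 other degradation genes the medians were 0.01, -0.01 and -0.00, and the 2 genes named by p were Selenos, a selenoprotein of the retrotranslocation complex, at 47.7 ± 8.32, 51.4 ± 10.6 and 71.5 ± 16.8 TPM, and the lectin Os9 at 165, 136 and 129 TPM. Treated and young liver differed by 0.56 in Selenos (adjusted p = 0.1111) and by -0.32 in Os9 (adjusted p = 0.3312). Of 23 genes of ER to Golgi transport, 20 had the higher mean in aged than in young liver (median 0.05), 16 in treated than in aged liver (median 0.06) and 20 in treated than in young liver (median 0.15). In that list the cargo receptor Tmed2 averaged 138, 149 and 189.6 TPM and the coat subunit Sec24a 12.9, 10.9 and 9.86 TPM, with treated against young differences of 0.48 and -0.34. In 16 other ATF4 targets the medians were 0.14, -0.09 and 0.21, with 10, 7 and 10 genes higher in the 3 comparisons. For this list and the transport genes, the share of all genes tested with the higher mean was 59.2%, 49.7% and 57.4% in the same order. The serine synthesis enzyme Phgdh averaged 0.182, 4.33 ± 7.89 and 1.25 TPM. It was at 18.4 TPM in aged 5, at 0.31 to 1.76 TPM in the other aged libraries and at 0.13 to 0.25 TPM in young libraries. Every aged library thus lay above every young library, with young values below the filter level of 1 TPM. That was 1 of 16 genes, against 3.38% of all genes with separate groups in that comparison. Cth, cystathionine gamma-lyase, averaged 313, 268 and 225 TPM. In 11 aminoacyl-tRNA synthetases, Tars1 averaged 39.8, 50.4 and 67.3 TPM (treated against young 0.76, adjusted p = 0.1007) and Cars1 12.9, 15.6 and 16.9 TPM (0.37, adjusted p = 0.3604). The median of these synthetases was -0.00, -0.03 and 0.05 over the 3 comparisons.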

How the data were processed

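Total RNA of mouse liver was sequenced in 15 libraries, 5 in each of 3 groups taken from the labels. Per the submitters' processing notes, which give no versions, the authors used fastp, HISAT, RSEM and the build GRCm39. The deposited values are TPM, scaled by the authors within each library to sum to between 999999 and 1000001, given to 2 decimals. Sequencing depth is not kept in TPM and is unknown here, so no counting interval was computed. Reads of near-identical or overlapping genes may be split between rows in ways the TPM values do not show.

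The 12168 genes averaging 1 TPM or more over all libraries were tested on log2(TPM + 1), a scale that understates changes of low genes. limma 3.58.1 (R 4.3.3) was fitted to all 3 groups with trended and robust moderation. Aged minus young, treated minus aged and treated minus young were tested two-sided, with Benjamini-Hochberg adjustment over all genes tested and a threshold of 0.05. The procedure was checked on simulated data. Promoter windows came from RefSeq on GRCm38.p6, and no coordinates were moved between builds. The alternatives were pseudocounts of 0.1 and 5, no filter, a filter of 5 TPM, quantile normalization, median-ratio scaling, library weights, fits of 2 groups alone, a replicate block and each library left out. Combinations of libraries left out together were added after the data were seen.

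The members, lists and tests were chosen with earlier results of these data known. Values in every library are given for Hspa5, Hsp90b1, Xbp1, Atf4 and Ddit3 and for the members with the smallest unadjusted p over the comparisons, up to 14. Of each wider list, in which no gene was called, the 2 genes with the smallest unadjusted p are named.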

Additional observations from a re-analysis of the deposited data

Results flagged for a closer look

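Within a group of 5 libraries, a value was singled out where the gap between the most extreme library and its neighbour exceeded 0.71 of the group's range on the log2(TPM + 1) scale. Of 126 groups examined (each member and each role group's mean, in young, aged and treated liver), 20 met this. The threshold stands for about 5% in a single group. Members share the same libraries, and the role means are made of the members, so the groups are not independent. The 20 flags therefore do not measure an excess over chance. The share of all genes that meet the rule was not computed.

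Treated 5 was the library singled out most often, as the highest treated library. Pdia3 was at 317 TPM there (others 175.62 to 197.86), Pdia4 at 231.01 (119.43 to 135.17), Pdia6 at 267.38 (145.62 to 160.49) and Canx at 161.17 (116.44 to 123.74). The co-chaperone Dnajb11 was at 112.23 TPM (45.68 to 53.63), Sdf2l1 at 147.18 (34.33 to 47.33), Creld2 at 117.52 (23.02 to 36.92) and Hyou1 at 82.3 (30.57 to 37.01). The translocon gene Ssr1 was at 27.94 TPM (13.41 to 16.05). The mean over the chaperones was 7.7367 on the log2 scale (6.6683 to 6.787).

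Young 4 was the lowest young library for Ern1 at 3.01 TPM (others 9.25 to 10.97), Eif2ak3 at 1.47 (3.72 to 4.07), Atf6 at 3.1 (7.61 to 9.55), Xbp1 at 52.75 (91.86 to 109.93) and Creb3l3 at 54.76 (165.02 to 232.6). The mean over the sensors and factors was 3.0526 there on the log2 scale (4.2011 to 4.3734).

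Young 2 was the lowest young library for Hspa5 at 150.65 TPM (191.68 to 208.17) and for Creld2 at 18.62 (31.2 to 34.69). Aged 5 was the highest aged library for Derl3 at 16.98 TPM (0.75 to 1.92). Treated 4 was the highest treated library for Asns at 0.95 TPM (0.12 to 0.22).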

How the results depend on the processing

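Across 27 alternative settings, the chaperone median ran from 0.09 to 0.52 for treated against aged liver and from -0.05 to 0.33 for treated against young liver. The ATF4-type median ran from 0.03 to 0.33 and from -0.19 to 0.13, and the sensor median from -0.14 to 0.07 and from -0.38 to 0.03. That of degradation and translocon genes ran from -0.06 to 0.16 and from -0.22 to 0.09. For aged against young liver the ranges were -0.28 to 0.08, -0.27 to -0.05, -0.35 to 0.09 and -0.16 to 0.14 in the same order. With all libraries, each median was smaller than the SD of its role group's mean between libraries (0.246 to 0.395). That SD is the spread of single libraries and is larger than the error of a difference between groups, which was not computed for these medians. For the 14 members chosen by name or by smallest p, 20 of 1125 values were called where none had been, and 55 changed sign without a call. Ern1, called without young 4, was not among these 14. For aged against young liver, 76 genes were called with the 5 TPM filter and 244 with library weights, and between 79 (without young 3) and 163 with 1 library left out. Members called were 1 with library weights (Derl2) and 0 to 1 with 1 library left out (Derl2 without young 4). For treated against aged liver, 0 genes were called with the 5 TPM filter and between 1 and 2 with 1 library left out (2 without aged 3 or treated 5), with 0 members in each setting. For treated against young liver, 354 genes were called, 265 of them higher. The count was 188 without a filter, 217 with the 5 TPM filter, 574 under quantile normalization (252 higher), 598 under median-ratio scaling (356 higher) and 1538 with library weights (947 higher). It lay between 180 (without treated 2) and 1185 (without young 4) with 1 library left out, with 217, 208 and 210 without young 2, 3 and 5, 194 without treated 5 and 597 without treated 1. Members called there were 1 under quantile normalization and 1 under median-ratio scaling (Trib3), 4 with library weights (Trib3, Derl2, Nupr1 and Creb3l3), 0 to 4 with 1 library left out (Trib3, Derl2, Creb3l3 and Ern1 without young 4) and 1 with the replicate block (Trib3, adjusted p = 0.03915). Replicate numbers were not shown to pair libraries: deviations of same-numbered libraries correlated between -0.249 and 0.309, over 0.1 in 4 of 15 pairs. Quantile normalization moved the median of all genes in that comparison from 0.06 to -0.07. With the 5 TPM filter Trib3, Nupr1 and Vldlr were not tested. Chosen after seeing the data, leaving out aged 5 and treated 5 gave 2 genes for treated against aged liver, leaving out young 4, aged 5 and treated 1 gave 1476 genes and 4 members for treated against young liver (Trib3, Derl2, Nupr1 and Creb3l3), and leaving out young 4, aged 5 and treated 5 gave 642 genes and 3 members (Trib3, Derl2 and Creb3l3). The cause of these shifts was not tested. With 5 libraries a group and no depth, intervals of the members span up to several log2 units, as for Derl3.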

Other observations

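Aged 5 also stood apart in a few genes outside the chaperones. Asns was at 2.25 TPM there, where the other aged libraries held 0.02 to 0.63 TPM, and Phgdh, the first enzyme of serine synthesis, was at 18.4 TPM, where the other aged libraries held 0.31 to 1.76 TPM. The proliferation marker Mki67 was at 4.09 TPM in aged 5, and all other libraries lay at or below 0.98 TPM. Jchain, the joining chain of secreted antibodies, was at 127 TPM in aged 5 and 129.8 TPM in treated 4, at 2.94 to 42.0 TPM in the other aged and treated libraries and at or below 0.67 TPM in young libraries. The part of these libraries in the differences between groups was not tested.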
